A study of Saccharomyces cerevisiae with 13 samples.

Results

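The 10 genes described here encode the core of the mating pheromone response of budding yeast, and were taken by their systematic names from a time course of 6205 yeast gene rows. They are GPA1 (YHR005C), STE4 (YOR212W) and STE18 (YJR086W), the 3 subunits of the G protein, STE5 (YDR103W), the scaffold of the kinase cascade, STE7 (YDL159W) and FUS3 (YBL016W), its MAP kinase kinase and MAP kinase, STE12 (YHR084W), the transcription factor at its end, SST2 (YLR452C) and MSG5 (YNL053W), which switch the signal off, and FAR1 (YJL157C), which stops the cell cycle. All 10 had a value on all 13 arrays and were among the 6151 genes with at least 10 values that were tested. The 6 genes GPA1, FUS3, STE12, SST2, MSG5 and FAR1 are grouped as induced feedback members, because pheromone is known to raise them and they act back on the response. The other 4, STE4, STE18, STE5 and STE7, are grouped as steady members.

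The sampled cells were Saccharomyces cerevisiae of the W303 background, labelled as mutant in YOX1 and YHP1, the genes for a pair of homeodomain repressors of the cell cycle. They were arrested with alpha factor, the pheromone secreted by alpha cells, and then released into YEPD, a rich medium. RNA was taken every 10 min from 0 to 120 min and each time point has 1 array with 2 colours, which leaves 1 sample in each of the 13 groups and no replicates. The sample carried Cy5. The Cy3 channel held wild-type cells that were not synchronised, grown in YEPD overnight, so every value is a ratio of arrested or released cells labelled yox1 yhp1 to cycling wild-type cells. All the sampled cells carry the mutant label and have seen pheromone, and an untreated mutant culture or a wild-type time course was not analysed here. The labels give neither the kind of mutation nor the mating type.

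When alpha factor binds its receptor on an a cell, the G protein alpha subunit Gpa1 lets go of the Ste4 and Ste18 pair. That pair recruits the scaffold Ste5 to the membrane, and the kinases Ste11, Ste7 and Fus3 then pass the signal to Ste12, which raises the mating genes. The response also limits itself: Gpa1 recaptures the free pair, Sst2 speeds the return of Gpa1 to its inactive state, and the phosphatase Msg5 acts on Fus3. Far1 holds the cells in G1 by acting against the G1 cyclin kinase, and it also guides growth towards the mating partner.

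Values are log10 ratios of sample to reference, each array being centred on its median gene. The base of the logarithm was inferred from the deposited values, as neither the labels nor the table state it. If it were 2, the 10.0-fold difference given below for SST2 would read 2.00-fold, and the 3.64-fold one for FUS3 would read 1.48-fold. Errors and p-values come from limma fits and measure how far these 13 arrays of 1 culture scatter around a curve, not how cultures differ. An array carries RNA of a whole culture, so fewer cells of a kind and less RNA per cell cannot be told apart.

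Each array measured 6065 to 6176 genes, and neighbouring arrays correlated across genes with r between 0.585 and 0.858. The genes of the strain label were both lower than in the reference on average, YHP1 by 1.88-fold (below 0 on 13 of 13 arrays) and YOX1 by 1.30-fold (10 of 13 arrays), but YOX1 still ranged from -0.53 to 0.12 and was periodic (adjusted p = 0.00776, limma), so the label was not settled by these values. The 7 a-cell markers averaged 0.556 at 0 min and -0.253 to 0.105 later, while the 4 alpha-cell markers averaged 0.017 at 0 min and -0.054 to 0.027 later. The deposited values had their widest spread on the 10 min array, with an SD of 0.173 against 0.0942 to 0.158 on the others.

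In arrested cells 3 of the 6 feedback members, SST2, FUS3 and GPA1, rose past the threshold, and none of the 4 steady members did. At 0 min each of the 6 feedback members had its highest value of the 13 arrays, as had STE4 and STE5 among the steady members. Over all genes with 13 values, 11.4% had their highest value at 0 min. A curve with a 62 min cycle and a separate term for the 0 min array was fitted to every gene, and the difference at 0 min is the 0 min value minus that curve. SST2, FUS3 and GPA1 rose at 0 min past an adjusted p of 0.05, whereas 0.900% of the 6109 genes tested did so and 0.786% passed as lower. STE4, a steady member, and MSG5, a feedback member, had differences of similar size, 0.16 and 0.18, and neither passed. The median difference was 0.43 over the 6 feedback members, 0.05 over the 4 steady members and 0.005 over all genes tested. The split into both groups rests on known biology, was made with earlier results of these data known, and was not itself tested.

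**Figure D1:**
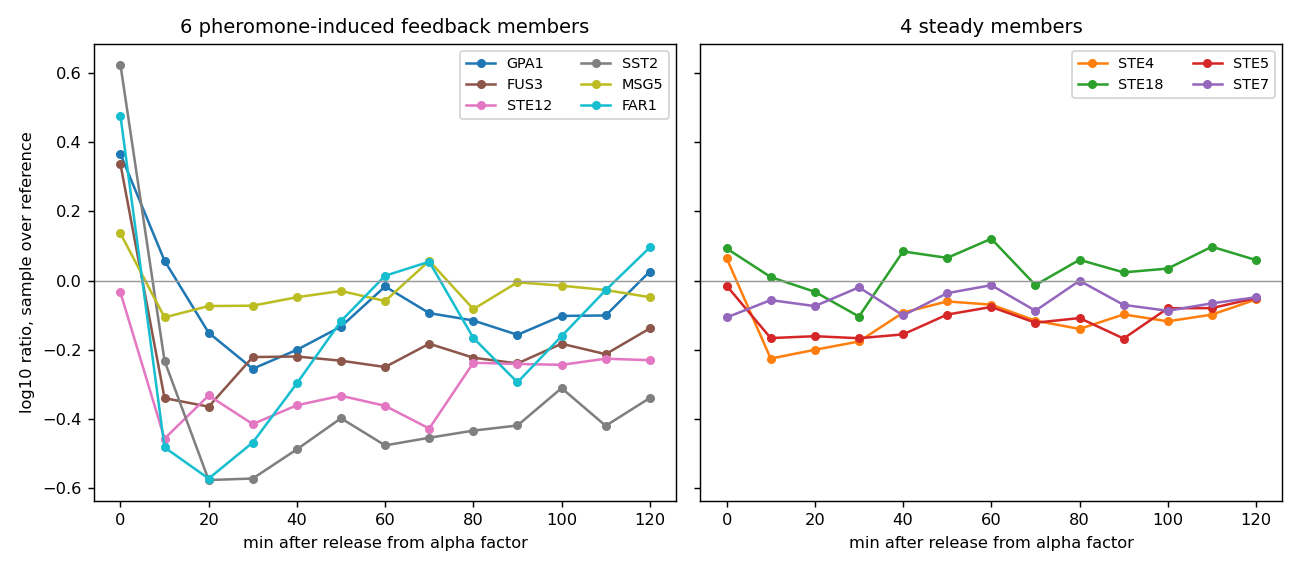
Log10 ratio of sample to reference (vertical axis) against min after release from alpha factor (horizontal axis) for the 6 feedback members on the left and the 4 steady members on the right, 1 point per array. Each left line has its highest point at 0 min, from -0.03 in STE12 to 0.62 in SST2, and SST2 then reaches -0.58, while the right lines stay between -0.23 and 0.12.

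Among the G protein genes, the alpha subunit GPA1 changed and the other two did not pass the test. GPA1 read 0.37 at 0 min, 0.06 at 10 min, -0.15 at 20 min, -0.25 at 30 min, -0.20 at 40 min, -0.13 at 50 min, -0.02 at 60 min, -0.09 at 70 min, -0.11 at 80 min, -0.16 at 90 min, -0.10 at 100 min, -0.10 at 110 min and 0.03 at 120 min. The arrested sample was the highest, the lowest came at 30 min, and only 10 and 120 min of the later arrays lay above 0. The difference of GPA1 at 0 min was 0.37 ± 0.061 (SE), or 2.33-fold higher (adjusted p = 0.00566, limma), the 32nd largest of 6109 genes. STE4, the beta subunit, read 0.06 at 0 min and between -0.23 and -0.05 later (median -0.11), a difference of 0.16 ± 0.047 (adjusted p = 0.123, limma). Its 0 min value lay above all 12 later ones, although the difference did not pass the threshold. STE18, the gamma subunit, read 0.09 at 0 min and between -0.10 and 0.12 later (median 0.05), so its arrested value lay inside the later range (adjusted p = 0.942, limma).

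In the kinase module the last kinase was high in arrested cells. FUS3 read 0.34 at 0 min, -0.34 at 10 min, -0.36 at 20 min, -0.22 at 30 min, -0.22 at 40 min, -0.23 at 50 min, -0.25 at 60 min, -0.18 at 70 min, -0.22 at 80 min, -0.24 at 90 min, -0.18 at 100 min, -0.21 at 110 min and -0.14 at 120 min. The arrested sample alone lay above 0, and all 12 later samples lay below. FUS3 was 3.64-fold higher at 0 min than its curve (difference 0.56 ± 0.062 SE, adjusted p = 0.000162, limma), the 16th largest difference. STE7, the kinase that activates Fus3, read -0.11 at 0 min, its lowest value, and between -0.10 and -0.001 later (adjusted p = 0.675, limma). STE5, the scaffold that holds both, read -0.01 at 0 min and between -0.17 and -0.05 later (difference 0.07 ± 0.041 SE, adjusted p = 0.572, limma). The MAP kinase was thus the 1 member of the module past the threshold.

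STE12 differed from the other feedback members in its level: it stayed below the reference on 13 of 13 arrays, the arrested sample included. It read -0.03 at 0 min and between -0.46 and -0.23 later (median -0.33), with no overlap between 0 min and the later arrays. The difference of 0.31 ± 0.084 (SE), or 2.05-fold, did not pass the threshold (adjusted p = 0.0897, limma).

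SST2, which encodes the regulator of G protein signalling that ends the response of Gpa1, showed the largest difference of the 10 genes. SST2 read 0.62 at 0 min, -0.23 at 10 min, -0.58 at 20 min, -0.57 at 30 min, -0.49 at 40 min, -0.40 at 50 min, -0.48 at 60 min, -0.45 at 70 min, -0.43 at 80 min, -0.42 at 90 min, -0.31 at 100 min, -0.42 at 110 min and -0.34 at 120 min. It was far above the reference in arrested cells and below it on each of the 12 later arrays. The difference was 1.0 ± 0.098 (SE), or 10.0-fold (adjusted p = 7.32e-05, limma), the 7th largest of all genes tested. MSG5, the phosphatase gene, read 0.14 at 0 min and between -0.11 and 0.06 later (median -0.05), 1.5-fold above its curve without passing the threshold (adjusted p = 0.128, limma). Without the 70 min array, where MSG5 reached its highest later value, the fit gave it an adjusted p of 0.0103 (limma).

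FAR1, the inhibitor of the G1 cyclin kinase, had the second highest 0 min value of the 10 genes but did not pass the 0 min test. FAR1 read 0.48 at 0 min, -0.48 at 10 min, -0.57 at 20 min, -0.47 at 30 min, -0.30 at 40 min, -0.12 at 50 min, 0.01 at 60 min, 0.05 at 70 min, -0.17 at 80 min, -0.29 at 90 min, -0.16 at 100 min, -0.03 at 110 min and 0.10 at 120 min. It was high at 0 min, lowest at 20 min, high again at 60 to 70 min, and high once more at 120 min. Its cycle curve was itself at -0.01 at 0 min, and the difference from it was 0.49 ± 0.154 (SE), 3.06-fold (adjusted p = 0.181, limma). Where the fit also had a linear term for time, 6 members passed in place of 3: FAR1 (adjusted p = 0.00103), STE12 (adjusted p = 0.00103) and STE4 (adjusted p = 0.0438) joined SST2, FUS3 and GPA1 in that limma fit. STE4 also passed after quantile normalization (adjusted p = 0.0306, limma), which made 4. The difference at 0 min rests on 1 array, and pheromone, position in the cycle and that hybridisation cannot be told apart.

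**Figure D2:**
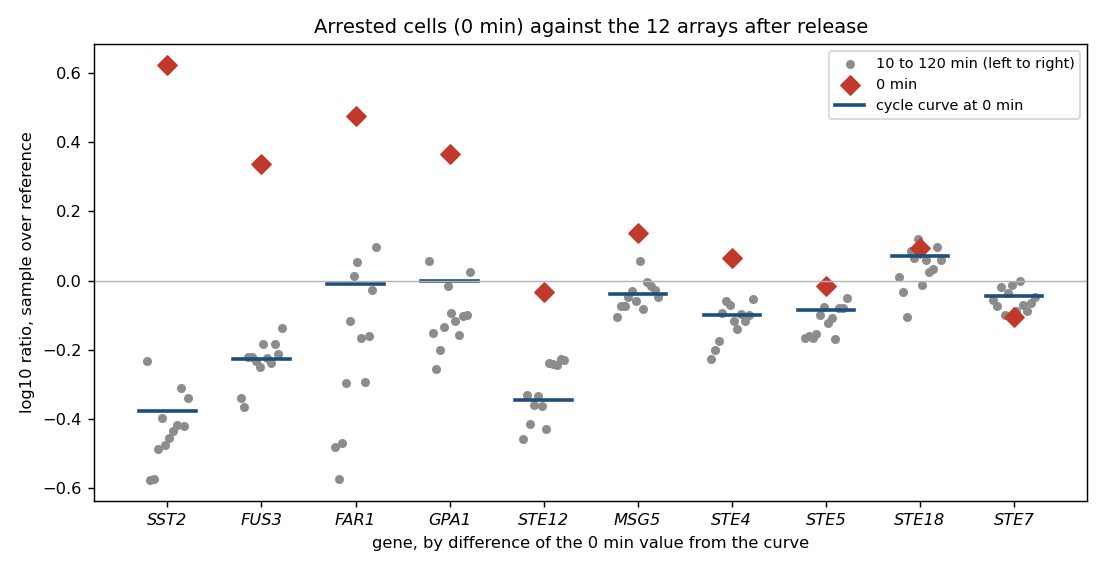
Log10 ratio of sample to reference (vertical axis) for each of the 10 genes (horizontal axis, ordered by the difference at 0 min), with the 0 min array as a diamond, the 12 later arrays as dots from left to right in time order, and the fitted cycle curve at 0 min as a bar. The diamonds of SST2, FUS3, FAR1, GPA1, STE12, MSG5, STE4 and STE5 lie above all of their dots, and those of STE18 and STE7 do not.

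The members differed in how much of the way from the 0 min value to the lowest later value lay before the first array after release. That part was 71.3% in SST2, 49.7% in GPA1 and 42.0% in STE18, and STE7 had its lowest value at 0 min. It was not computed over all genes, so it has no background share. From 0 to 10 min the log10 ratio of FAR1 differed by -0.96, 9.08-fold, the 4th largest decrease of the 5674 genes with all values. SST2 differed by -0.85 (7.16-fold, 7th), FUS3 by -0.68 (4.74-fold, 13th), STE12 by -0.42 (2.64-fold, 27th) and GPA1 by -0.31 (2.03-fold, 68th). These 5 feedback members were among the genes with the largest decreases, where the median absolute change of all genes was 0.061. STE4 differed by -0.29 (85th), MSG5 by -0.24 (162nd) and STE5 by -0.15 (464th). By 10 min FUS3 had covered 96.5% and FAR1 91.4% of the way from the 0 min value to the lowest later value, and STE12, MSG5 and STE4 were at their lowest. STE5 had covered 99.2%. GPA1 and SST2 had more of the way left, and between 10 and 20 min they differed by a further -0.21 and -0.34. The ratio at 0 min was 15.8-fold that of the lowest array in SST2, 11.2-fold in FAR1, 5.02-fold in FUS3 and 4.17-fold in GPA1. The lowest later value came at 10, 20 or 30 min in 8 of 10 members, all but STE5 (90 min) and STE7 (40 min), where 40.5% of all genes had it there. These differences each compare 1 array with 1 other and have no test, and the 10 min array is the one with the widest spread.

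Across the cycles after release FAR1 and GPA1 were the 2 members called periodic, with crests later than those of the G2/M genes. Over all 13 arrays FAR1 swung 3.58-fold from trough to crest and peaked at 58.5 ± 2.69 min (SE; adjusted p = 0.0347, limma), and GPA1 swung 1.96-fold and peaked at 62.0 ± 2.84 min, the end of the 62 min period and so also its start (adjusted p = 0.0445, limma). In all, 15.0% of genes were called periodic, so 2 of 10 members is near that share. These calls were marginal. The FAR1 call was lost in 9 of 24 alternatives and the GPA1 call in 12 of 24. Without 1 array at a time, FAR1 failed without the 20 min (0.0801), 30 min (0.0810), 40 min (0.0644), 50 min (0.0534), 60 min (0.0529) or 90 min array (0.0505), all adjusted p-values from limma. GPA1 failed without the 10 min (0.0563), 20 min (0.0844), 30 min (0.135), 40 min (0.0961), 60 min (0.0520), 80 min (0.0579), 110 min (0.0546) or 120 min array (0.0900), likewise adjusted p-values from limma.

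Because the arrested sample can shape a cosine, the fit was also made on the 12 arrays after release, a choice made after the first fit was seen. FAR1 then swung 2.20-fold, with a crest at 59.3 ± 1.96 min (SE, adjusted p = 0.0114, limma). GPA1 swung 1.58-fold with its crest at 2.53 ± 2.34 min of the 62 min cycle (SE, adjusted p = 0.0249, limma). Here too the share of all genes was similar, at 14.2%. The other 8 members had adjusted p-values from 0.199 (STE4) to 0.998 (MSG5) in this limma fit. Without the 30, 40, 60 or 120 min array as well, the GPA1 call was lost (adjusted p = 0.0792, 0.0672, 0.0552 and 0.0532, limma), and FAR1 kept its call when any 1 of the 12 was left out. With the period shortened by 5 min FAR1 lost its call (adjusted p = 0.130, limma), and with it lengthened by 5 min GPA1 did (adjusted p = 0.0713, limma).

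In the order of the cycle, FAR1 crested after the G2/M genes and GPA1 near the start of the next cycle. In the fit without 0 min the mean of 32 G1/S genes peaked at 19.0 ± 1.30 min (SE), that of 8 histone genes at 29.2 ± 1.05 min, that of 14 G2/M genes at 49.6 ± 1.47 min and that of 13 M/G1 genes at 10.0 ± 3.19 min. FAR1 at 59.3 min thus lay later than the G2/M mean by more than both errors together. GPA1 at 2.53 min lay between FAR1 and the M/G1 mean of the next cycle, with gaps only a little wider than the errors, so its place relative to those is uncertain. None of these gaps was tested. The trough of FAR1 in the first cycle was -0.57 at 20 min and in the second -0.29 at 90 min, while its crests were 0.05 at 70 min and 0.10 at 120 min, the last array. GPA1 in turn had troughs of -0.25 at 30 min and -0.16 at 90 min and crests of -0.02 at 60 min and 0.03 at 120 min. Its highest value after release was neither crest but 0.06 at 10 min, on the way from 0.37 at 0 min to -0.15 at 20 min. The crest at 120 min is the end of the course, so no later value bounds it.

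**Figure D3:**
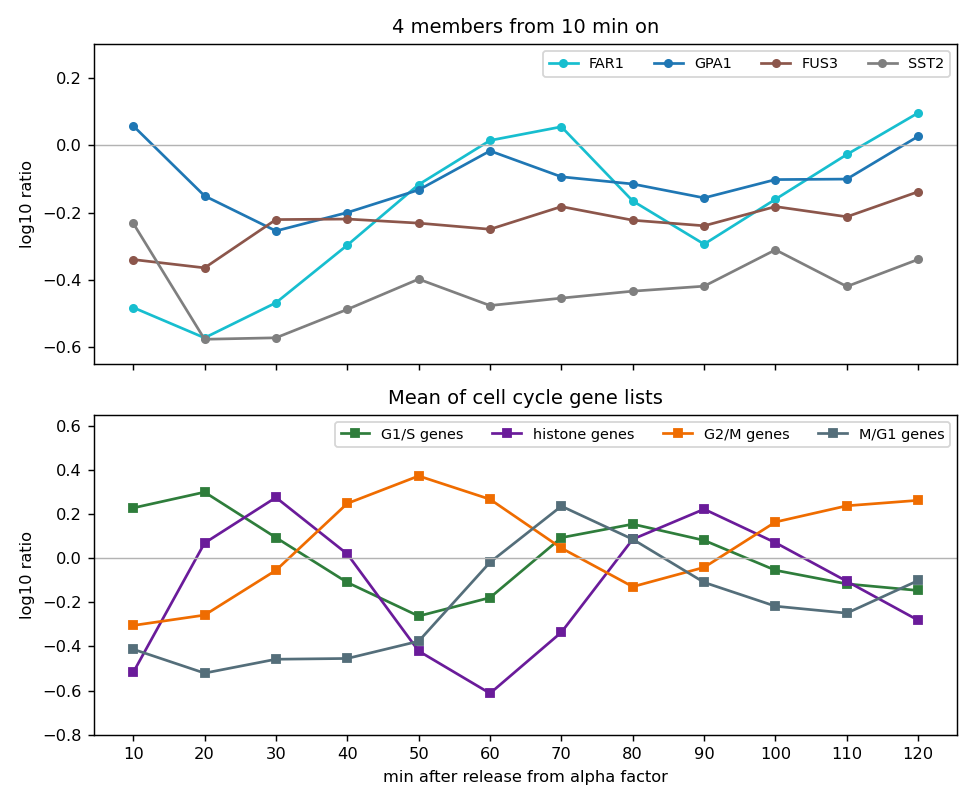
Log10 ratio of sample to reference (vertical axes) from 10 to 120 min after release (horizontal axis) for FAR1, GPA1, FUS3 and SST2 (top) and for the means of 4 cell cycle gene lists (bottom), 1 point per array. FAR1 has troughs at 20 and 90 min and crests at 70 and 120 min, GPA1 has troughs at 30 and 90 min, and FUS3 and SST2 show no called cycle.

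In the mean of the course, most members lay below the unsynchronised reference. Of the 10 genes, 8 passed the test as lower than the reference in the mean of the 13 arrays, and STE18 passed as higher. Over all genes tested, 32.0% passed as lower and 33.6% as higher. SST2 was 2.26-fold lower (mean -0.35 ± 0.065 SE, adjusted p = 0.000271, limma), STE12 2.00-fold (-0.30 ± 0.029) and FUS3 1.56-fold (-0.19 ± 0.039 SE, adjusted p = 0.000579, limma). These 3 were lower by at least 1.5-fold, as were 4.24% of all genes. FAR1 was 1.45-fold lower, STE5 1.30-fold and STE4 1.29-fold. The means of the feedback members hold the high 0 min value. Without it SST2 was 2.66-fold lower, STE12 2.10-fold, FUS3 1.71-fold and FAR1 1.57-fold.

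The remaining members lay close to the reference. STE7 was 1.15-fold lower and GPA1 1.19-fold lower (adjusted p = 0.0272, limma), a call that ended when the array at 30, 40, 50, 60, 70 or 110 min was dropped (0.0542 to 0.0642 in adjusted p). With the 0 min array dropped instead, GPA1 was 1.26-fold lower (adjusted p = 6.55e-05, limma). STE18 was 1.09-fold higher (adjusted p = 0.0279, limma), a call that ended when the array at 40, 60, 80, 90 or 110 min was dropped (0.0530 to 0.0731 in adjusted p). MSG5 was 1.07-fold lower and did not pass (adjusted p = 0.135, limma), but passed once the 0 min array was dropped (adjusted p = 0.00846, limma). The reference differs from the samples in strain, in treatment with alpha factor and release, in synchrony and in dye. No dye swap was made, and these differences cannot be told apart in a mean.

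No member passed the test between the second cycle (70 to 120 min) and the first (10 to 60 min), where 0.293% of all genes were higher and 0.456% lower in limma. At an unadjusted p under 0.05 there were 3 members, against 14.5% of all genes. FAR1 was 1.73-fold higher in the second cycle, by 0.24 ± 0.058 (SE, adjusted p = 0.105, limma) and in 6 of 6 pairs of arrays 60 min apart. STE12 was 1.28-fold higher, by 0.11 ± 0.023 (SE, adjusted p = 0.0738, limma) and also in 6 of 6 pairs. FUS3 was 1.19-fold higher in 5 of 6 pairs (adjusted p = 0.262, limma). STE12 passed when the array at 10 min (adjusted p = 0.0304) or at 70 min (adjusted p = 0.0311) was dropped, and when arrays were weighted by their scatter (adjusted p = 0.0112, limma). FAR1 passed with such weights (adjusted p = 0.0371) and after quantile normalization (adjusted p = 0.0359, limma). STE7 was the 1 member with a lower mean in the second cycle, by -0.010 ± 0.023 (SE).

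The likeness between feedback members was lower once the arrested sample was left out. Over the 13 arrays, which share 1 culture and 1 reference, the 15 pairs of feedback members had Pearson r between 0.58 and 0.92 (median 0.73). Over the 12 arrays after release they had r between -0.16 and 0.76 (median 0.25). The 24 pairs of a feedback and a steady member had a median r of 0.58 with and 0.33 without 0 min, and the 6 pairs of steady members 0.28 and 0.42. After release the feedback pairs were thus the least alike of the 3 kinds by median. The closest pair over 13 arrays was GPA1 and SST2 (r = 0.918, and 0.728 without 0 min), the alpha subunit and its regulator. FUS3 and SST2 had r = 0.903 with and 0.143 without 0 min. FAR1 was also close to 2 steady members, STE5 (r = 0.902, and 0.849 without 0 min) and STE4 (r = 0.897 and 0.811), so the grouping by role did not match every profile.

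Set against all 5673 other genes, each of the 4 called members had a different set of closest profiles over the 13 arrays. For GPA1 the 3 closest were STE2, the alpha-factor receptor gene (r = 0.953, and 0.869 without 0 min), YDR249C (r = 0.943) and TBS1 (r = 0.935). For SST2 they were PRM2 (r = 0.974, and 0.695 without 0 min), STE2 (r = 0.972 and 0.774) and PRM1 (r = 0.957 and 0.451), where PRM1 and PRM2 encode pheromone-regulated membrane proteins. For FUS3 they were SPT14, a gene of glycolipid anchor synthesis (r = 0.944, and 0.886 without 0 min), PRP39, a splicing factor gene (r = 0.936), and RGD2, which encodes a GTPase-activating protein (r = 0.936). For FAR1 they were SSY5, a protease gene of amino acid sensing (r = 0.955, and 0.932 without 0 min), YBR075W (r = 0.931) and TEC1, a partner of Ste12 in filamentous growth (r = 0.925 and 0.862). STE2 was thus among the 3 closest of both GPA1 and SST2, and each other name appeared once. SSY5 lies next to FAR1 in the gene table, and its own difference at 0 min was 0.08 (adjusted p = 0.509, limma).

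Around the 10 members, mating genes downstream of Ste12 and some genes of the receptor end rose in arrested cells, and no other core signalling gene passed the test. Of 15 mating genes that Ste12 is known to raise, 14 passed the test as higher at 0 min and none as lower, with a median difference of 0.65. The shares over all genes tested were 0.900% and 0.786%. This list holds known targets and was chosen with earlier results of these data known. AGA1, which encodes the anchor of the a-agglutinin, was 27.9-fold above its curve (1.44 ± 0.258 SE, adjusted p = 0.00827, limma), though robust variance estimation brought its adjusted p to 0.0501. PRM1, which acts in fusion of the mating cells, was 19.6-fold, FUS1, another cell fusion gene, 12.8-fold and PRM6, which encodes a potassium transporter, 8.20-fold above its curve. The exception was PRM8, whose difference was 0.05 (adjusted p = 0.672, limma).

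At the receptor end, 4 of 10 genes for receptors, pheromones and their handling passed the test as higher at 0 min (median difference 0.35). Of all genes tested, 0.900% did so. BAR1, the protease that destroys alpha factor, was 11.5-fold above its curve (adjusted p = 0.00497), STE2 5.21-fold (adjusted p = 0.000125) and ASG7, an a-cell gene that acts on the Ste4 signal, 3.46-fold (adjusted p = 7.32e-05, limma). MFA1, a gene for the a-factor pheromone, was 4.75-fold higher at an adjusted p of 0.0495 (limma) and lost its call in 17 of 24 alternatives. AFR1 (difference 0.39, adjusted p = 0.0570) and STE6 (0.31, adjusted p = 0.0897, limma) did not pass. MFA2 and the alpha-cell genes STE3, MF(ALPHA)1 and MF(ALPHA)2 had differences between -0.02 and 0.08. Of 5 nuclear partners of Ste12, KAR4, which acts with it on karyogamy genes, was the 1 that passed (10.0-fold, adjusted p = 1.23e-07, limma).

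None of 11 other core signalling genes passed at 0 min (median difference 0.03), nor did any of the genes of the wall integrity and osmotic MAP kinase modules, of which 12 of 13 had a 0 min value (median -0.01). Among the 11, PTP2, a phosphatase gene, was called periodic over all arrays (adjusted p = 0.0377, limma), as were 4 of the 13 wall and osmotic genes. Of the 10 receptor and pheromone genes, STE6, the exporter of a-factor, was called periodic (adjusted p = 0.0444, limma). The share called periodic over all genes tested was 15.0%, so these counts are not read as a trait of the lists. No gene of these 5 lists passed the test as lower at 0 min.

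**Figure D4:**
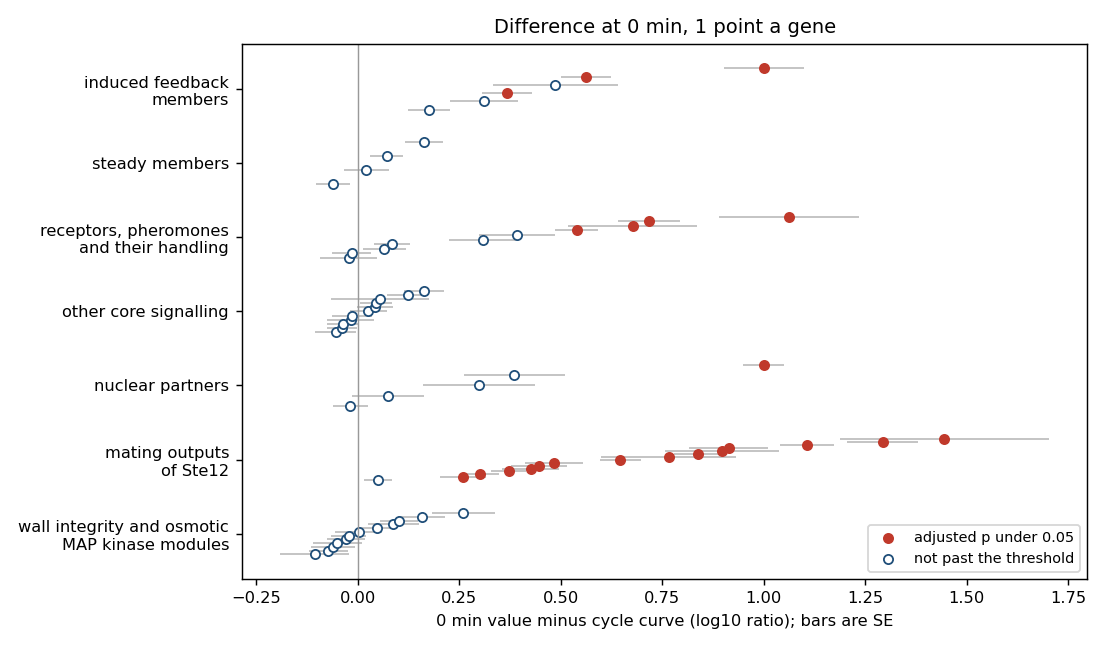
Difference of the 0 min value from the cycle curve in log10 ratio (horizontal axis, bars are SE) for each gene of the 2 member groups and 5 other pathway lists (vertical axis), filled where the adjusted p was under 0.05. Filled points fill the list of mating outputs except PRM8, reach 1.44 there, and are absent from the steady members, the other core signalling genes and the wall and osmotic modules.

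The cell cycle lists gave the state of the culture at 0 min. Of 14 G2/M genes, 5 passed the test as lower at 0 min. Among them were the cyclin genes CLB1 (-0.96 ± 0.162 SE) and CLB2 (-0.55 ± 0.119 SE) and the bud neck genes HOF1 (-0.67 ± 0.126 SE) and MYO1 (-0.33 ± 0.058 SE). Of 32 G1/S genes, CLN1, a G1 cyclin gene, was the 1 that passed as lower (-0.39 ± 0.083 SE, adjusted p = 0.0286, limma). No histone or M/G1 gene passed. The 8 histone genes nevertheless had a median difference of -0.35, against -0.34 in the G2/M list. Their mean ratio at 0 min, -0.84, was the lowest of the 13 arrays. CLB2, HOF1 and CLN1 lost their calls in some alternatives. The part of the 5 G2/M genes and of CLN1 in the members' differences at 0 min was not tested.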

How the data were processed

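The deposited table holds 1 column of log ratios per array, sample (Cy5) over reference (Cy3) per the labels. They were read as log10, since 18 values have a size of exactly 2, which would cap the data at 100-fold in base 10 but at 4-fold in base 2, and the largest other value is 1.61. For these deposited log10 values, the authors' background correction, normalisation and filters were not given in the sources used here. Scanner files were not used here, so brightness over background is unknown.

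From these values, the 12 rows without a gene identifier and the 18 values at the limit were left out and the median of each array was set to 0. Symbols came from RefSeq, which matched 5703 identifiers. limma 3.58.1 in R 4.3.3 fitted a mean level, a linear trend and 1 harmonic with a period of 62 min. Of periods between 50 and 80 min, that one left the least residual in the averaged G1/S genes. The 0 min fit replaced the trend by a term for that array, and a further fit on 10 to 120 min compared the second cycle with the first in pairs of arrays 60 min apart. Tests were two-sided, the periodic test was a moderated F test, and Benjamini-Hochberg adjustment ran over all genes tested, with 0.05 as the threshold. The median residual scatter was 0.0436 log10 units, or 10.6%. Alternatives were the period, a second harmonic, linear time, robust variance, array weights, centring, quantile normalization, kept limit values and leaving out each array.

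The members and the lists were chosen with earlier results of these data known. All members were named, and from each other list up to 4 genes with the largest difference at 0 min among those past the threshold. For members past the periodic or the 0 min threshold, the 3 genes with the highest r were named. PRM8, PTP2, STE6, the other receptor and pheromone genes that did not pass at 0 min, SSY5's own values, the genes in the closing observations, and the strain genes were added for their place in a count or beside a member.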

Additional observations from a re-analysis of the deposited data

How the results depend on the processing

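No direction of a called member reversed in the alternatives run. Among second-cycle differences that did not pass, SST2 turned from 0.061 to -0.075 after quantile normalization, and STE18, at 0.020, ranged from -0.0019 (without the 30 min or the 90 min array) to 0.036 with 1 array left out. The count of 2 periodic members became 0 with robust variance estimation, with a second harmonic and with the period shortened by 5 min, 1 with it lengthened by 5 min, and 0 to 2 when 1 array was left out. On the arrays after release the count of 2 became 1 with the period shortened by 5 min, where FAR1 lost its call, and 1 with it lengthened by 5 min, where GPA1 did (added after seeing the data), and 1 to 2 with 1 further array left out. The count of 3 members at 0 min became 6 with linear time in the fit, 4 after quantile normalization, and 3 to 4 when 1 array was left out. The median 0 min difference of the feedback members was 0.348 after quantile normalization, 0.549 with linear time and 0.402 to 0.446 with 1 array left out. For the steady members, at 0.0458, it was 0.0834 with linear time and 0.0387 to 0.0540 with 1 array left out. The count of 9 members off the reference was 7 to 10 with 1 array left out. The count of 0 in the second cycle became 1 after quantile normalization, 2 with array weights and 0 to 1 with 1 array left out. The causes of these shifts were not tested. The 0 min calls of SST2, FUS3 and GPA1 held in all 24 alternatives run. Each of these used the same 0 min array, which that test needs, so they cannot show how far the calls depend on it. No paired analysis was possible because the groups share fewer than 2 replicate numbers, 1 sample being taken at each time. The pairs of arrays 60 min apart are matched by time within 1 culture, not by replicate. Precision is limited by 13 arrays of 1 culture. The base of the logarithm is inferred, and the sign rests on the dyes in the labels without a dye swap.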

Other observations

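Of the 20 genes that lie next to a member in the RefSeq gene table, 19 were measured and 2 passed the test at 0 min in limma, in opposite directions. Over all 6109 genes tested, 0.900% passed as higher and 0.786% as lower. RIF2, a telomere gene beside SST2, was higher at 0 min by 0.29 ± 0.048 (SE, log10 ratio, adjusted p = 0.0064, limma), and its profile correlated with that of SST2 at r = 0.840 over 13 arrays and -0.022 without the 0 min array. CIS3, a cell wall gene beside FAR1, was lower at 0 min by a difference of -0.58 ± 0.102 (SE, adjusted p = 0.00793, limma).

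TEC1, a partner of Ste12 that was among the closest profiles to FAR1, was periodic after release (adjusted p = 0.00831, limma). It swung 1.72-fold and crested 5.0 min into the cycle, but was not called over all arrays (adjusted p = 0.0743, limma). TEC1 also rose in the second cycle by 0.19 (adjusted p = 0.0404, limma). AKR1, a gene of the core signalling list whose product acts on the Ste4 and Ste18 pair, was periodic after release (adjusted p = 0.0351, limma). It swung 1.44-fold and crested at 51.8 min, and likewise was not called over all arrays (adjusted p = 0.0589, limma). The share of all genes tested that were called periodic after release was 14.2%. Other listed genes passed there too, among them PTP2 (adjusted p = 0.0103) and STE6 (adjusted p = 0.0113, limma). Neither the TEC1 nor the AKR1 call was checked in the alternatives.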
